A study of Mus musculus with 16 samples.

Results

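The fragments of cytosolic tRNA-Asp-GTC, the transfer RNA that brings aspartate to the ribosome, were followed in small RNA from mouse sperm. A read was taken as a fragment when it was 18 to 44 nt long and matched the mature tRNA with its CCA tail at any place, with at most 1 substitution. This gave 3830 distinct sequences and 107293 reads, of 4230643 distinct sequences and 103084122 reads in the 8 sperm libraries. Of the 3830 sequences, 503 matched exactly and none fitted 2 places equally well. A single read matched 1 of 5 other tRNAs equally well.

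There were 4 groups with 2 libraries each, all of mature sperm from the cauda epididymis of male C57BL/6NCrl mice: Dnmt2+/+ on normal diet (ND, Diet 1415), Dnmt2+/+ on high-fat diet (HFD, D12492), Dnmt2-/- on ND and Dnmt2-/- on HFD. The knockout allele came from the line B6;129-Dnmt2tm1Bes/J, backcrossed to C57BL/6NCrl for more than 5 generations. C57BL/6NCrl males were bought at 6 weeks of age. The labels name no age at collection, no length of the diet and no pooling, and they do not say whether the replicates came from separate mice, so the p-values measure the spread between these libraries. The series also holds 8 libraries of transfected 3T3 cells, which were not used. Dnmt2 transcript was not measured in reads of this length, so the genotype labels were not checked.

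DNMT2, also called TRDMT1, is an RNA methyltransferase despite its name. It places a methyl group on the cytosine at the 3' end of the anticodon loop, C38, and tRNA-Asp-GTC is its best known substrate, with tRNA-Gly-GCC and tRNA-Val-AAC as the others. The anticodon loop is where ribonucleases such as angiogenin cut tRNAs into a 5' and a 3' part, and methylation by DNMT2 is known to protect tRNAs from that cut. Methylated cytosine is read as cytosine in an ordinary small RNA library, so these reads carry no direct measure of C38 methylation.

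The whole molecule is shown first because every position given here refers to it, with the anticodon loop, bases 32 to 38, in capitals. It was assembled from overlapping reads of these libraries, 5' to 3' and in DNA letters. It is 75 bases long with the tail and 72 without, the length of each of the 16 genes that RefSeq lists for this tRNA in mouse. Its 7 acceptor stem pairs all match, and the anticodon starts at base 34.
mature tRNA-Asp-GTC with its tail: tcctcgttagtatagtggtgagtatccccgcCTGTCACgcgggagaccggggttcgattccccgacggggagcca

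RefSeq places these 16 genes, named n-TDgtc1 to n-TDgtc16, on 6 chromosomes of GRCm38.p6, the assembly version also called mm10. There are 5 on chromosome 1, all between 171037029 and 171102442. Chromosomes 5 and 13 hold 3 each, chromosomes 10 and 11 hold 2 each, and chromosome 2 holds 1, n-TDgtc2, at 114103367 to 114103438. Which of these genes gave a read was not analysed here, because no gene sequence was used.

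The 9 most abundant reads, 3 of each class, show the shape of the fragment pool. A fragment was called 5' when it began in the first 3 bases and stopped before base 72, 3' when it reached base 72 or the tail, and internal otherwise. Capitals again mark the loop bases that a read kept.
5' fragment, bases 1 to 34: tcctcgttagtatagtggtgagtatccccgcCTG
5' fragment, bases 1 to 34, with G20T: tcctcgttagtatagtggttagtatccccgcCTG
5' fragment, bases 1 to 35: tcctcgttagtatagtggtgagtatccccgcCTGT
internal fragment, bases 37 to 70: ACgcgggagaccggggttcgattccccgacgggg
internal fragment, bases 36 to 70: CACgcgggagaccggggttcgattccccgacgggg
internal fragment, bases 40 to 70: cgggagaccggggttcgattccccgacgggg
3' fragment, bases 37 to 73: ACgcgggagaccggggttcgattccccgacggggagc
3' fragment, bases 40 to 73: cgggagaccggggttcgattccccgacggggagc
3' fragment, bases 39 to 73: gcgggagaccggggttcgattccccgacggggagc

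The 5' reads stopped on the first or second base of the anticodon, without C38. The internal and 3' reads started near the end of the loop, some just before C38 and some just past it. Their 3' ends lay 2 bases short of the end of the encoded part, at base 70, or on the first base of the tail, at base 73.

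The libraries were sequenced to between 10165031 and 19030258 reads, and all levels are in CPM, read counts scaled to a common library total, where 1 read was worth 0.0526 to 0.0984 CPM. Between 6765 and 24938 reads a library matched tRNA-Asp-GTC, so the 95% Wilson intervals of single-library shares were at most 2.86 percentage points to either side for any share of 5' fragments and 2.15 for any share of 3' or 3'-side fragments. The reads carry no molecular identifiers, so these intervals cover counting error only. Base errors tied to a read position split the libraries into 3 sequencing sets. Set A held the Dnmt2-/- ND pair with Dnmt2+/+ ND replicate 1. Set B held the Dnmt2+/+ HFD pair with replicate 1 of Dnmt2-/- HFD. The remaining libraries, Dnmt2+/+ ND replicate 2 and Dnmt2-/- HFD replicate 2, formed set C. Sets A and B each carried an error of their own, while set C was defined by lacking both. Its 2 libraries were therefore not shown to share a sequencing run. Set A was therefore all ND and set B all HFD, and diet and sequencing set cannot be told apart in them. Set C held 1 library of each diet, but these also differed in genotype.

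MicroRNAs of other cell types did not stay level across the sets. The summed level of the 5 epithelial microRNAs miR-200a, miR-200b, miR-200c, miR-141 and miR-429 was 190.5 to 1914 CPM in the ND libraries and 608.1 to 3987 CPM in the HFD libraries. miR-206, a muscle microRNA and the member of its list of 5 that was matched, ranged over 64.7 to 75.3 CPM within set B. No other library exceeded 0.676 CPM. Members with no sequence to match were not searched for, in this list and in those below. Blood microRNAs, 4 of 5 matched, summed to 2.79 to 83.5 CPM, mostly from miR-146a-5p. The others of that list were low, with miR-451a at 0.3035 to 2.198 CPM and miR-223-3p at 0.1517 to 1.465 CPM. Red cell miR-144-3p was at 0 in every library. Endothelial miR-126a-3p had 1.37 to 19.2 CPM. The liver list, 2 of 3 matched, went the other way from the epithelial sum. It summed to 16.2 to 26.8 CPM in the ND libraries and 6.40 to 11.9 CPM in the HFD libraries, mostly from miR-192-5p. Of 4 germ cell microRNAs 3 were matched: miR-881-3p had 270.0 to 1398 CPM, while miR-449a-5p had 0 to 4.76 CPM and miR-34b-5p 0 to 0.295 CPM, both at 0 in Dnmt2+/+ ND replicate 1. How far other cells contributed tRNA-Asp-GTC fragments was not tested, and in such bulk samples fewer cells of a type and less RNA per cell cannot be told apart.

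Levels of tRNA-Asp-GTC fragments did not separate the groups. All fragments together came to 371.1 and 1827 CPM in Dnmt2+/+ ND replicates 1 and 2, 1571 and 1163 CPM in Dnmt2+/+ HFD, 989.3 and 593.7 CPM in Dnmt2-/- ND, and 1910 and 508.4 CPM in Dnmt2-/- HFD. The lowest and one of the highest values were thus the 2 libraries of a single group, Dnmt2+/+ ND, and the diets and genotypes overlapped. Means ± SD (n = 4) were 1288 ± 602.7 CPM on HFD and 945.3 ± 641.0 CPM on ND, a difference of 342.8 CPM with an exact permutation p of 0.457, two-sided. Dnmt2-/- libraries averaged 1000 ± 641.4 CPM and Dnmt2+/+ libraries 1233 ± 636.3 CPM (SD, n = 4; exact permutation p = 0.657). Within set C the HFD library, Dnmt2-/-, minus the ND library, Dnmt2+/+, gave -1319 CPM, against the direction of the pooled diet difference.

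The 5' fragments, the part upstream of the cut, were the smallest class. They reached 79.7 and 257.5 CPM in Dnmt2+/+ ND, 202.4 and 262.1 CPM in Dnmt2+/+ HFD, 263.7 and 144.9 CPM in Dnmt2-/- ND, and 224.9 and 88.0 CPM in Dnmt2-/- HFD. Every group but Dnmt2+/+ HFD therefore held libraries that differed widely from each other. The most abundant 5' read, bases 1 to 34, had 19.4 and 68.2 CPM in Dnmt2+/+ ND, 32.6 and 42.2 CPM in Dnmt2+/+ HFD, 67.4 and 43.2 CPM in Dnmt2-/- ND, and 58.4 and 17.6 CPM in Dnmt2-/- HFD. Its G20T form ranged from 14.2 to 32.2 CPM, and the read of bases 1 to 35 from 6.88 to 30.3 CPM, again with all groups overlapping.

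Internal fragments were the largest class in 6 of 8 libraries; in both Dnmt2+/+ HFD libraries the 3' class was larger. They came to 182.5 and 805.9 CPM in Dnmt2+/+ ND, 533.8 and 427.9 CPM in Dnmt2+/+ HFD, 433.2 and 278.9 CPM in Dnmt2-/- ND, and 1327 and 227.0 CPM in Dnmt2-/- HFD. The library Dnmt2-/- HFD replicate 1 was far above the rest. It held 166.0 CPM of the read of bases 36 to 70, against 4.81 to 50.8 CPM in the other 7 libraries. The read of bases 37 to 70 was more even, at 22.9 to 96.6 CPM, and that of bases 40 to 70 stood at 89.5 CPM in Dnmt2+/+ ND replicate 2 and at 14.1 to 33.4 CPM elsewhere.

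The 3' fragments, which hold the acceptor end, came to 109.0 and 763.6 CPM in Dnmt2+/+ ND, 834.8 and 473.3 CPM in Dnmt2+/+ HFD, 292.4 and 170.0 CPM in Dnmt2-/- ND, and 357.8 and 193.5 CPM in Dnmt2-/- HFD. The 3 highest values were Dnmt2+/+ libraries, but so was the lowest. The leading 3' read, bases 37 to 73, had 28.6 and 101.1 CPM in Dnmt2+/+ ND, 159.4 and 73.2 CPM in Dnmt2+/+ HFD, 60.5 and 35.7 CPM in Dnmt2-/- ND, and 44.6 and 32.02 CPM in Dnmt2-/- HFD. The reads of bases 40 to 73 and 39 to 73 reached 116.1 and 99.6 CPM in Dnmt2+/+ ND replicate 2, their highest values.

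**Figure D1:**
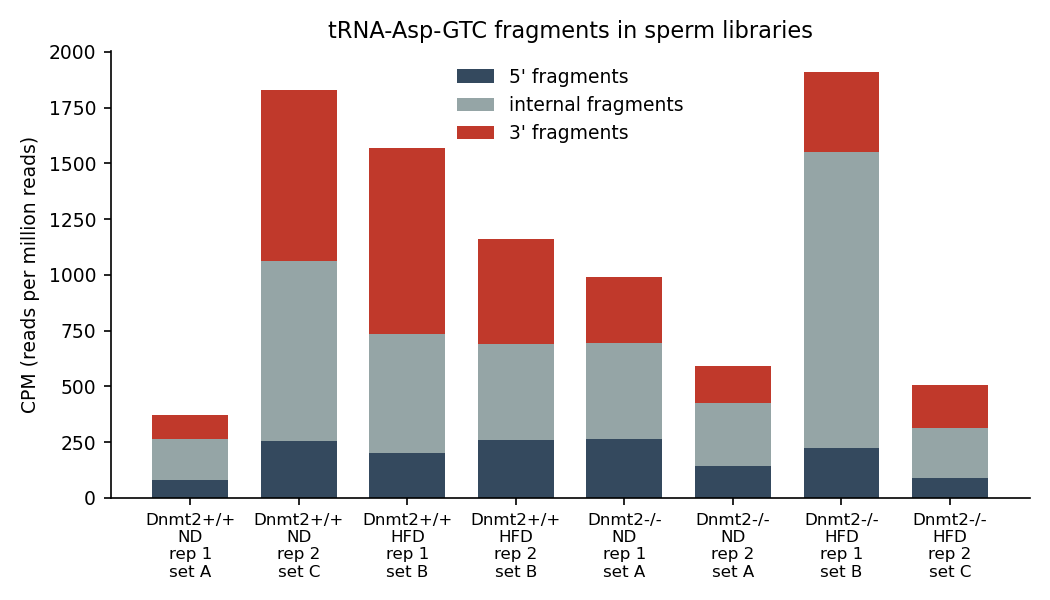
Stacked bars give the level of 5', internal and 3' fragments of tRNA-Asp-GTC in CPM (vertical axis) for each of the 8 sperm libraries (horizontal axis, with sequencing set). The total runs from 371.1 to 1910 CPM, and the libraries of one group differ as much as the groups do.

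As shares of all tRNA-Asp-GTC reads, 5' fragments made up 11.8% to 26.7% and internal fragments 33.98% to 69.49%. The 3' share was 29.4% and 41.8% in Dnmt2+/+ ND, 53.1% and 40.7% in Dnmt2+/+ HFD, 29.6% and 28.6% in Dnmt2-/- ND, and 18.7% and 38.1% in Dnmt2-/- HFD. It averaged 28.7% ± 7.90 in Dnmt2-/- and 41.3% ± 9.72 in Dnmt2+/+ libraries (SD, n = 4), 12.5 percentage points lower in the knockout, with an exact permutation p of 0.0857 that became 0.514 after Benjamini-Hochberg adjustment over 12 such tests. Within sequencing sets the difference was -28.2 points in B, -3.75 in C and -0.274 in A. Set B's value rested on Dnmt2-/- HFD replicate 1, and without that library the pooled difference was -9.17 points.

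In the fit of the whole read table with edgeR's quasi-likelihood test, none of the 3 classes passed an adjusted p of 0.05 for diet, genotype or their interaction. Of the 50232 features fitted, 4.13% were called for diet, and 0% for genotype and for the interaction; at an unadjusted p under 0.05 there were 2632 for genotype and 2096 for the interaction. For HFD against ND the log2 fold changes were 0.04 ± 0.60 (SE) for 5', 0.54 ± 0.66 for internal and 0.42 ± 0.64 for 3' fragments. The largest genotype value was that of the 3' fragments, -1.08 ± 0.65 in Dnmt2-/- against Dnmt2+/+ (edgeR adjusted p = 0.882), with a 95% interval of -2.49 to 0.32. The interaction, the diet difference in Dnmt2-/- minus that in Dnmt2+/+, was -0.85 ± 1.20, 1.17 ± 1.33 and -0.33 ± 1.28 for the 3 classes in the same order. Their 95% intervals ran from -3.44 to 1.75, from -1.71 to 4.04 and from -3.11 to 2.45, so the design did not resolve whether diet acted differently in the 2 genotypes.

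Library Dnmt2+/+ ND replicate 2 decided the diet value of the 3' fragments. Without it the log2 fold change for HFD against ND rose to 1.42, with an edgeR adjusted p of 0.049, in a fit that called 30.1% of all features and moved their median from 0.48 to 0.93. The genotype value of the 3' fragments was -0.08 without that library and -1.485 without the other library of its group, Dnmt2+/+ ND replicate 1. The internal fragments turned on Dnmt2-/- HFD replicate 1: without it their diet value was -0.34, their genotype value -0.78 and their interaction -0.61. With the sequencing set as a term, the diet values turned to -2.21, -3.04 and -2.09 for the 3 classes. The genotype value of the 3' fragments turned to 0.11, and none of these had an edgeR adjusted p under 0.05. Only Dnmt2+/+ ND and Dnmt2-/- HFD span 2 sets, so this fit credits their replicate gaps wholly to the set. Its values are therefore no firm estimate of diet or genotype. Scaling mattered too: trimmed mean (TMM) factors moved the median of all features from 0.48 to -0.0038 for diet and from -0.29 to 0.0026 for genotype, and the 5' and 3' diet values to -0.44 and -0.05.

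Taken one by one, 231 of the 3830 sequences passed edgeR's filter on low counts; they held 85.4% of the tRNA-Asp-GTC reads. None was called for diet, where 4.08% of all 50460 sequences tested were called, and none for genotype or interaction, where 0% were. At an unadjusted p under 0.05 there were 18 for diet, all higher on HFD, which is 7.79% beside 25.3% of all sequences tested. For genotype there were 4, all lower in Dnmt2-/- (1.73% beside 5.22%), and for the interaction 8 (3.46% beside 4.16%). The shares were thus below those of all sequences in each comparison. DESeq2 called none in any of the 3 comparisons, with an adjusted p for 37 of the 231 for genotype and for 137 for the interaction. Over all sequences it called 7.89% for diet, and 0.388% and 0.121% of those with an adjusted p for genotype and interaction. The median log2 fold change of the 231 was 0.78 for HFD against ND, beside 0.49 over all sequences, and -0.76 for Dnmt2-/- against Dnmt2+/+, beside -0.29. By class, the median genotype value was -0.41 over 36 5' reads, -0.41 over 108 internal reads and -1.40 over 87 3' reads. Such overlapping reads of one tRNA are not independent. The direction did not hold in every fit. Without Dnmt2+/+ ND replicate 2 the median genotype value of the 231 was 0.55, beside 0.06 over all sequences. With the sequencing set as a term it was 0.75, beside -0.06.

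The same fit without Dnmt2+/+ ND replicate 2 called 76 of the 231, all higher on HFD. That is 32.9%, while 30% of all sequences were called in that fit. With every sequence of at least 10 reads tested, 635 of them from tRNA-Asp-GTC, edgeR called 3 for diet, where 3.63% of all 187037 were called. These 3 were named after their values were seen: bases 31 to 63 with C63T (115 reads in all), bases 35 to 68 with G68A (62 reads) and bases 1 to 41 with G41A (25 reads), each with its substitution on its last base. The second had 53 of its 62 reads in Dnmt2-/- HFD replicate 1.

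The ends of the 5' fragments fell almost wholly inside the anticodon loop. The last base was one of bases 32 to 38 in 80.8% to 90.8% of 5' fragments, and base 34, the first of the anticodon, was the main end in every library. It took 51.1% and 41.6% in Dnmt2+/+ ND, 30.5% and 33.7% in Dnmt2+/+ HFD, 45.2% and 57.1% in Dnmt2-/- ND, and 55.4% and 41.4% in Dnmt2-/- HFD. The Dnmt2+/+ HFD libraries were the 2 lowest, and all other groups overlapped one another. Base 35 followed with a median of 16.7% over the 8 libraries and base 36 with 13.3%, and bases 34 to 36, the anticodon itself, took 66.6% to 81.7% together. Base 36 ran from 5.00% in Dnmt2-/- HFD replicate 1 to 21.9% in Dnmt2+/+ HFD replicate 1.

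Few 5' fragments ended beyond the anticodon. Base 37 was the last base of 0.0525% to 0.720% of 5' fragments and C38 of 0% to 0.375%. Both Dnmt2-/- ND libraries and Dnmt2+/+ ND replicate 1 had no 5' fragment ending on C38. Fragments that began at the 5' end and ran past C38 were rare in all groups, at 0.594% to 7.34% of 5' fragments, with the highest values, 7.34% and 4.54%, in Dnmt2+/+ HFD. In Dnmt2+/+ HFD replicate 1 these ended mainly at base 41, with 3.74% of 5' fragments, and at base 39, with 2.54%. The share of 5' fragments ending in the loop was 83.5% ± 3.62 on HFD and 88.0% ± 3.44 on ND, and 86.8% ± 4.29 in Dnmt2-/- and 84.7% ± 4.10 in Dnmt2+/+ (SD, n = 4). Neither difference passed, with exact permutation p = 0.143 (adjusted 0.514) for diet and p = 0.514 (adjusted 0.717) for genotype.

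The other side of the cut was read from fragments that did not begin at the 5' end and had their first base at 31 to 45, called 3'-side fragments here. They made up 96.3% to 99.5% of all internal and 3' fragments, at 290.1 to 1665 CPM, and outnumbered 5' fragments by 2.72 to 7.40 times. Their starts formed 2 peaks. Base 37, the last but one of the loop, was the first base of 33.6% and 24.0% in Dnmt2+/+ ND, 37.53% and 32.97% in Dnmt2+/+ HFD, 32.97% and 31.8% in Dnmt2-/- ND, and 20.5% and 27.1% in Dnmt2-/- HFD. Both Dnmt2-/- HFD libraries were below every library but Dnmt2+/+ ND replicate 2. The second peak lay just beyond the loop, with means of 18.2% at base 39 and 18.6% at base 40, while C38 itself began 3.10% to 11.7% of the fragments and base 34 no more than 0.607%.

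**Figure D2:**
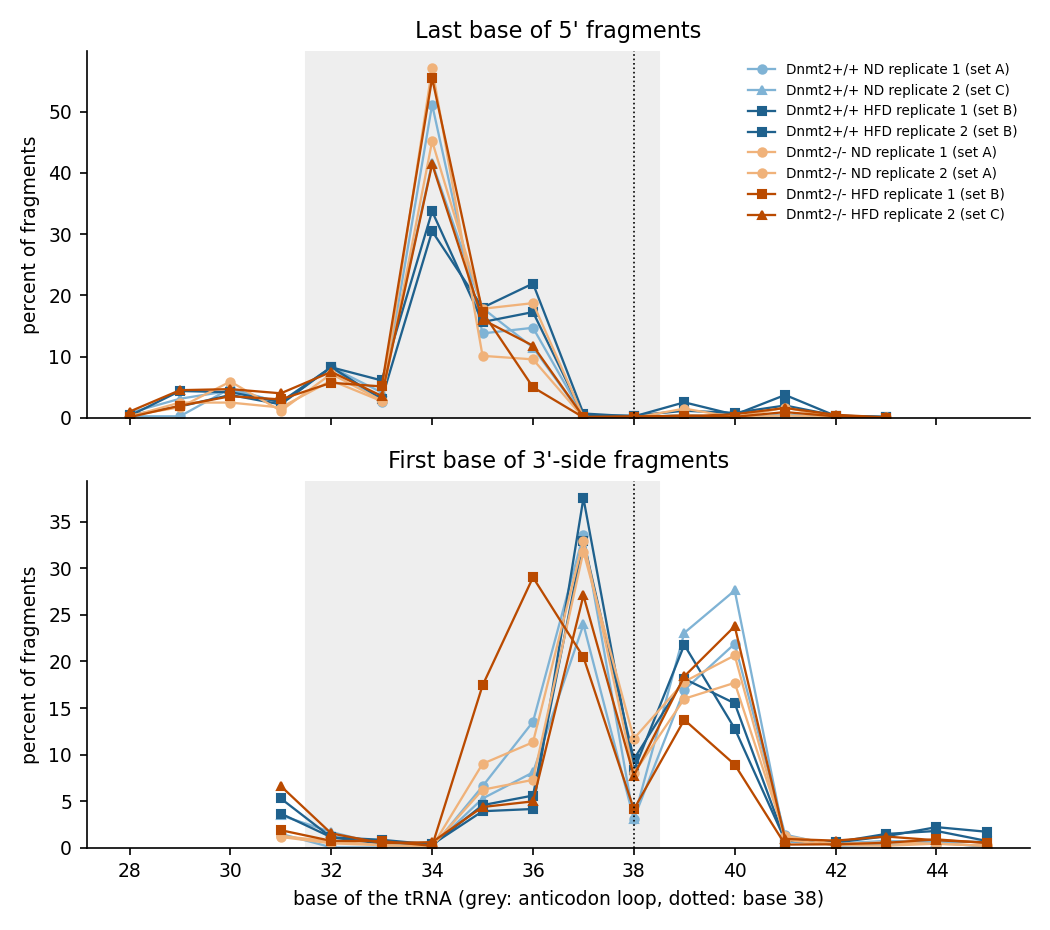
The upper panel gives the last base of 5' fragments and the lower panel the first base of 3'-side fragments, as percent of those fragments (vertical axis) at each base of the tRNA (horizontal axis), with a line for each library. The 5' ends peak at base 34, with 30.5% to 57.1%, and the 3'-side starts peak at bases 37, 39 and 40, except in Dnmt2-/- HFD replicate 1, which peaks at base 36 with 29.03%.

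The 2 sides of the cut did not mirror each other. A single cut after base 34, the main 5' end, would leave a 3' part that starts at base 35, yet base 35 began 3.93% to 9.02% of 3'-side fragments in 7 libraries and 17.4% in Dnmt2-/- HFD replicate 1. Base 39, the base after C38, began 13.7% to 23.1% of 3'-side fragments, yet 5' fragments ending on C38 were at most 0.375%. Reads that ran through the whole loop, from base 32 or before to base 39 or after, were 1.359% to 8.204% of all fragments.

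Whether C38 stayed with the 3' part was counted for each library. Starts at bases 31 to 38, which keep C38, made up 58.5% and 46.2% of 3'-side fragments in Dnmt2+/+ ND, 59.97% and 59.83% in Dnmt2+/+ HFD, 63.3% and 59.5% in Dnmt2-/- ND, and 74.6% and 53.5% in Dnmt2-/- HFD. The highest value was a Dnmt2-/- library and the lowest a Dnmt2+/+ one, and the genotypes overlapped, with 62.7% ± 8.91 in Dnmt2-/- and 56.1% ± 6.67 in Dnmt2+/+ (SD, n = 4; not tested). Among 3' fragments alone, the share that started at bases 33 to 39 was 67.8% ± 5.63 on HFD and 65.3% ± 4.24 on ND, and 64.9% ± 2.50 in Dnmt2-/- and 68.2% ± 6.35 in Dnmt2+/+. Exact permutation p-values were 0.514 for diet and 0.4 for genotype, both 0.717 after adjustment. The directions depended on the window: with starts at bases 31 to 41 the diet difference was -4.15 points (exact permutation p = 0.0286, adjusted 0.171) and the genotype difference 0.351 points.

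Dnmt2-/- HFD replicate 1 stood apart in where its 3'-side fragments started and ended. Starts at bases 35 and 36 took 17.43% and 29.03%, against 3.93% to 4.58% and 4.17% to 5.61% in the other 3 HFD libraries. Its ends were shorter as well, with 32.9% at bases 67 to 69 against 9.09% to 16.9% in the other 7 libraries. The other Dnmt2-/- HFD library showed neither feature, with 9.37% of starts at bases 35 and 36 and 9.09% of ends at bases 67 to 69.

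At their far end, 3'-side fragments stopped mainly at bases 70 and 73. Dnmt2-/- HFD replicate 1 had more ends at base 69, 18.7%, than at base 73. Base 70, which pairs in the acceptor stem, took 37.8% and 26.4% in Dnmt2+/+ ND, 15.5% and 21.0% in Dnmt2+/+ HFD, 32.6% and 35.6% in Dnmt2-/- ND, and 35.3% and 22.6% in Dnmt2-/- HFD. Base 73, the first base of the tail, took 30.4% and 31.3%, 40.6% and 32.1%, 27.6% and 27.2%, and 13.7% and 29.7% in the same order. The Dnmt2+/+ HFD libraries were thus lowest at base 70 and highest at base 73, and Dnmt2-/- HFD replicate 1 was lowest at base 73.

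**Figure D3:**
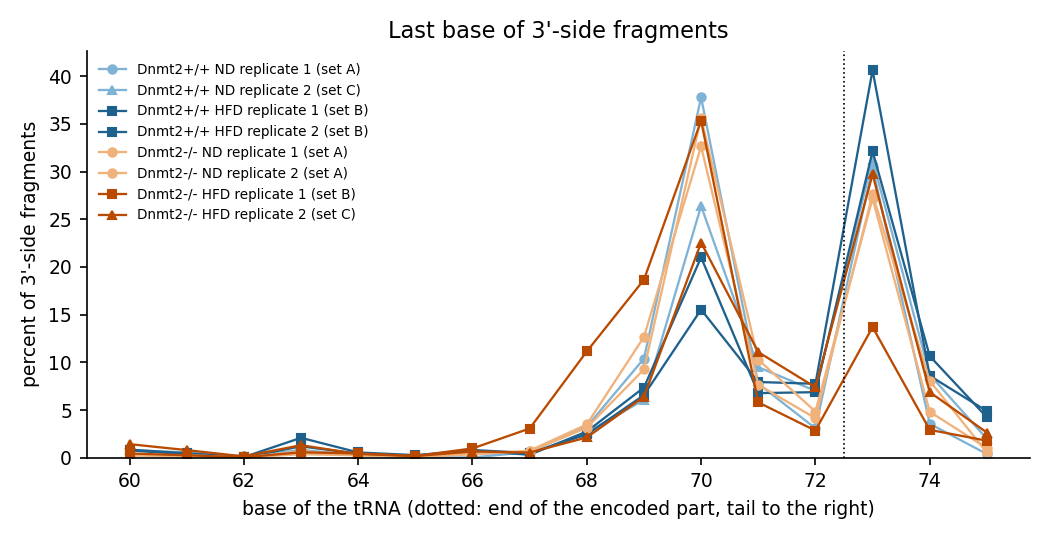
Lines give the last base of 3'-side fragments of tRNA-Asp-GTC, as percent of those fragments (vertical axis) at bases 60 to 75 (horizontal axis), for each library. Ends gather at base 70 and at base 73, the first tail base, and Dnmt2-/- HFD replicate 1 has the highest values at bases 67 to 69.

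The CCA tail, added to every mature tRNA by a nucleotidyltransferase and needed for loading the amino acid, was mostly incomplete. Of the 3' fragments, 59.6% to 81.1% ended on its first C, 9.50% to 20.1% on its second, and 8.245% to 15.97% held no tail base. The whole CCA was present in 1.21% and 4.09% in Dnmt2+/+ ND, 7.92% and 7.94% in Dnmt2+/+ HFD, 1.40% and 2.64% in Dnmt2-/- ND, and 8.52% and 5.71% in Dnmt2-/- HFD. All 4 HFD libraries lay above all 4 ND libraries. The means were 7.52% ± 1.24 on HFD and 2.33% ± 1.33 on ND (SD, n = 4), a difference of 5.19 percentage points. Its exact permutation p of 0.0286, the smallest that 4 libraries against 4 can give, became 0.343 after adjustment over the 12 tests. The genotypes differed by -0.722 points (Dnmt2-/- minus Dnmt2+/+; exact permutation p = 0.743).

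The diet difference in the tail ran with the sequencing sets. Set A, all ND, had 1.21% to 2.64%, set B, all HFD, 7.92% to 8.52%, and the 2 libraries of set C 4.09% on ND and 5.71% on HFD, 1.62 points apart. A linear model with genotype, diet, their interaction and set put the diet difference at 0.924 points. It has nearly as many terms as libraries, and its set terms rest on the replicate gaps in Dnmt2+/+ ND and Dnmt2-/- HFD. The epithelial microRNA sum, given above, was also higher in set B than in set A. The part of either in the difference was not tested.

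A T on the last base of a read followed the same sets. At base 73, T was read in 13.7% to 15.0% of reads over that base in set B and in 2.005% to 7.359% elsewhere. At base 74 these shares were 16.3% to 18.9% and 3.15% to 12.3%. Fewer reads covered base 74, from 222 to 2280 a library. The lowest share, in Dnmt2+/+ ND replicate 1, rested on 7 of 222 reads, with a 95% Wilson interval of 1.54% to 6.36%. In 99.4% of the reads with C73T, and 99.6% of those with C74T, the changed base was the last of the read. Leaving out all reads with a substitution kept the diet difference in the CCA share, at 6.11 points.

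**Figure D4:**
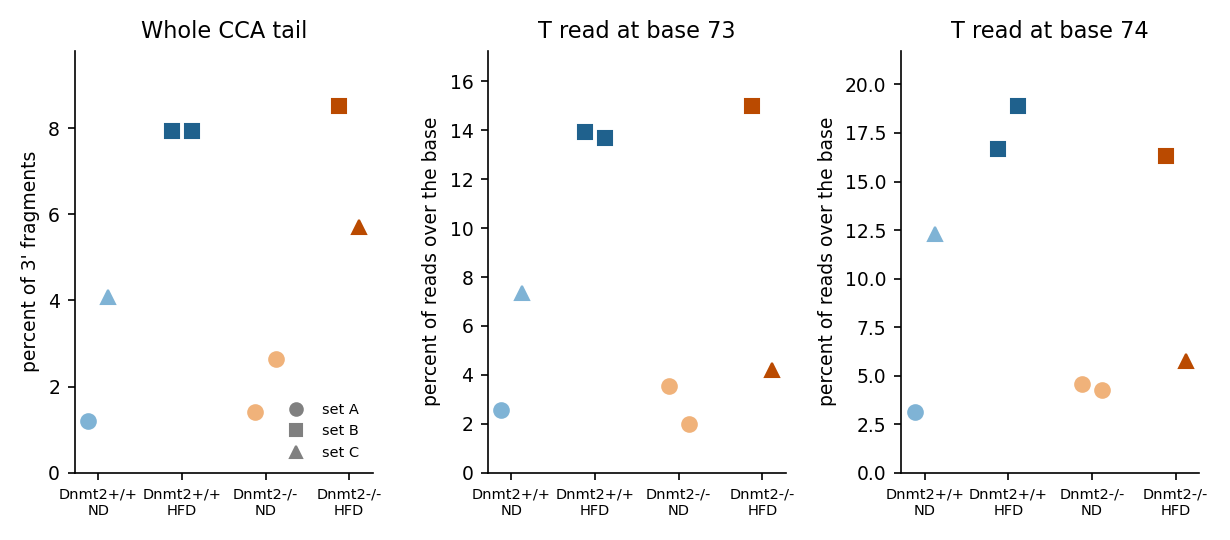
Points give the share of 3' fragments with the whole CCA tail (left) and the share of reads with T at base 73 (middle) and base 74 (right), in percent, for the 4 groups, with a point for each library and the sequencing set as its shape. HFD libraries exceed ND libraries in the left panel, by 5.19 points on average, while set C lies between sets A and B or near set A.

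Of the matching reads, 26.9% to 40.1% carried a substitution. G56A had the most reads, 6564, and G20T the next, 5559, but fewer reads cover base 20. The former was in 5.91% to 8.80% of reads over base 56 and the latter, the larger share, in 21.9% to 40.8% of reads over base 20. At most 0.122% of the reads with either had it on their last base. Whether they come from differing genes or from the reading of modified bases was not tested. The 5' fragments with T at base 20 ended much like those with G: base 34 took a mean of 55.6% of the first and 49.1% of the second among those that reached base 32 or beyond. Substitutions at C38 were at 0.147% to 0.533% of reads over that base, and at base 34, where the mature tRNA carries queuosine, at 0.762% to 5.55%, highest in Dnmt2-/- HFD replicate 1.

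The reach of the 5' fragments into the anticodon set tRNA-Asp-GTC apart from 5 other tRNAs. Its 5' fragments were scarce, with a median of 213.7 CPM over the libraries, beside 160089 CPM for tRNA-Gly-GCC, 252163 for tRNA-Glu-CTC, 7562 for tRNA-Val, 2009 for tRNA-Lys-CTT and 1632 for tRNA-His-GTG. Between 71.9% and 82.9% of them reached the first anticodon base, base 34, or went beyond. The same share was 1.05% to 6.04% for tRNA-Gly-GCC, another DNMT2 substrate, and 15.0% to 32.6% for tRNA-Val, whose AAC form is a substrate. It was 8.91% to 21.0% for tRNA-Glu-CTC, 11.4% to 43.8% for tRNA-Lys-CTT and 4.90% to 47.2% for tRNA-His-GTG. On this share, no library of any of these 5 reached the lowest value of tRNA-Asp-GTC. The share of 5' fragments ending inside the loop did not set it apart from all 5. That share was 73.1% to 91.4% for tRNA-Lys-CTT, beside 80.8% to 90.8% for tRNA-Asp-GTC. It was at most 79.1% for tRNA-Val, 78.2% for tRNA-Gly-GCC, 59.0% for tRNA-His-GTG and 45.6% for tRNA-Glu-CTC.

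The share was higher for tRNA-Asp-GTC in 8 of 8 libraries against each of the 5. Mean differences were 74.6 ± 5.24 percentage points against tRNA-Gly-GCC, 53.3 ± 8.83 against tRNA-Val, 61.0 ± 5.31 against tRNA-Glu-CTC, 50.9 ± 13.9 against tRNA-Lys-CTT and 56.1 ± 16.1 against tRNA-His-GTG (SD, n = 8 libraries). Each had an exact permutation p of 0.0078 from swapping the 2 tRNAs within libraries, two-sided, the smallest 8 libraries can give, and 0.0078 after adjustment over the 5. The comparison was chosen after these values were seen, with ranges that did not overlap. The p-values were therefore bound to lie at their floor and add no support. The 5 tRNAs were not taken at random. tRNA-Val stands for its AAC and CAC forms, which share the 5' part, and the sequence assembled for it has the CAC anticodon. Of the 5 assembled sequences, only that of tRNA-His-GTG passed all the checks that tRNA-Asp-GTC passed. Only the 5' parts of the 5 were used for this share. Within tRNA-Asp-GTC the share did not order the genotypes, with 71.9% to 80.5% in Dnmt2+/+ and 72.8% to 82.9% in Dnmt2-/- libraries.

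**Figure D5:**
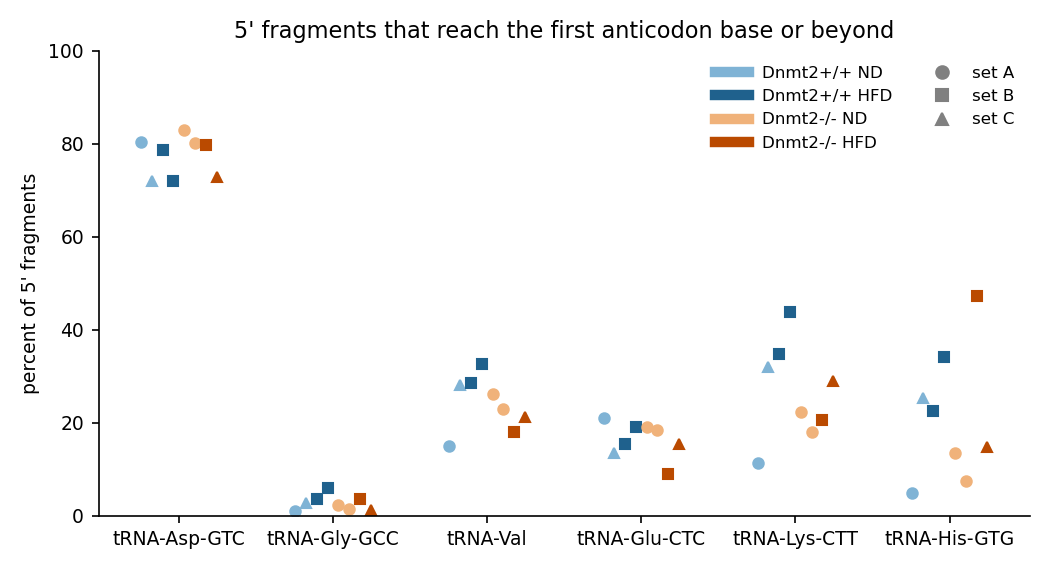
Points give, for each library, the percent of 5' fragments (vertical axis) that reach the first anticodon base or go beyond, for tRNA-Asp-GTC and 5 other tRNAs (horizontal axis), with the group as colour and the sequencing set as shape. All 8 points of tRNA-Asp-GTC lie between 71.9% and 82.9%, above every point of the other tRNAs, which reach at most 47.2%.

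The reads whose level over the 8 libraries was most like the total of tRNA-Asp-GTC resembled the 5' ends of other tRNAs. Among 502 reads with a mean of at least 100 CPM, the highest Pearson r of log2(CPM + 1) was 0.959, for a 31 nt read like the 5' end of tRNA-Gly-GCC. A 32 nt read of tRNA-Val followed with 0.928, and a second 31 nt read of the glycine kind with 0.927. These are descriptions over 8 libraries that share their depth and sequencing set with the total. They are shown for the match of their first bases to the tRNAs named, with no capitals because no loop base was marked.
read with r of 0.959: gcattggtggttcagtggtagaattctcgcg
read with r of 0.928: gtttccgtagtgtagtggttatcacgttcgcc
read with r of 0.927: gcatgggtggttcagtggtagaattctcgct
Their means were 189.7, 1116 and 269.5 CPM. Both reads of the glycine kind varied widely, from 40.4 to 370.3 CPM and from 35.7 to 549.2 CPM. Each ended on a base other than that of the assembled tRNA-Gly-GCC. They were minor forms beside all 5' fragments of tRNA-Gly-GCC, at 132368 to 282799 CPM. Whether that whole pool varied with tRNA-Asp-GTC was not tested.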

How the data were processed

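Sperm small RNA libraries were made with Illumina's TruSeq kit, as the labels' protocols state. The deposited files list each distinct read with its length and its count, after cleaning by the authors; the cleaning steps are not given in the sources used here. Counts were summed per library and divided by the library's total of 18 to 44 nt reads to give CPM. No genome was used: the tRNA was assembled in Python 3.11.15 from the reads, from an 8-base start by overlaps of 14 bases. Reads were placed without gaps. Members and lists were chosen with earlier results of these data known. The sequences named are the 3 most abundant of each class, any that passed the test, and the 3 most alike reads.

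Single values per library were compared by exact permutation of 4 libraries against 4 (12 tests, Benjamini-Hochberg), which cannot go below 0.0286. Counts of all reads were fitted with edgeR 4.0.16 (quasi-likelihood, 4 groups in 1 fit, total reads as library size, adjusted over the whole table). The fit was also run on simulated counts, with a spread set beforehand and not taken from these libraries. That run does not show how the fit performs at the spread seen here. DESeq2 1.42.0, TMM factors, other filters and windows, exact matches, the replicate number, the sequencing set and leaving out each library were the alternatives. Replicates of a group were not the same library, with chi-squares of 47.4 to 531.5 per sequence.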

Additional observations from a re-analysis of the deposited data

Results flagged for a closer look

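In groups of 4 libraries of a diet or a genotype, a value was singled out when its gap to the nearest other value took up more of the group's range than the 95% critical value of Dixon's test allows. Of 96 groups checked 8 had such a value, where chance gives about 1 in 20. These involve 2 libraries.

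Dnmt2-/- HFD replicate 1 had an internal share of 69.5% of tRNA-Asp-GTC reads, where the other Dnmt2-/- libraries had 43.8% to 47.0%. Its read of bases 36 to 70 stood at 166.0 CPM, against 4.81 to 13.1 CPM in the other HFD libraries. Starts of 3'-side fragments at base 35 took 17.4%, against 3.93% to 4.58%, and starts at base 36 took 29.03%, against 4.17% to 5.61% in those libraries.

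Dnmt2+/+ ND replicate 2 had a 3' share of 41.8%, where the other ND libraries had 28.6% to 29.6%. Its read of bases 40 to 70 stood at 89.5 CPM, against 19.5 to 22.3 CPM in the other ND libraries and 14.1 to 21.1 CPM in the other Dnmt2+/+ libraries. Its read of bases 39 to 73 stood at 99.6 CPM, against 15.7 to 23.3 CPM in the other ND libraries. It is the only ND library of sequencing set C.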

How the results depend on the processing

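Of 172 alternatives to the 12 permutation results, 161 kept the direction and 11 reversed it; of 153 for the 9 class results, 122 kept it, 30 reversed it and 1 passed the threshold. All 45 for the reach of 5' fragments were kept, with differences of 48.3 to 77.4 points. The cause of the changes was not tested. A loop window of bases 30 to 40, which counts starts at bases 31 to 41, turned the loop-start share to -4.15 points for diet (exact permutation p = 0.0286, adjusted 0.171) and 0.351 for genotype. With the sequencing set as a term, total CPM turned to -1800 for diet and 481.4 for genotype, the 5' share to 4.15 and -0.932 points, and the CCA share for genotype to 0.700 points. In the same term the log2 fold changes for diet became -2.21, -3.04 and -2.09 (5', internal, 3'), and for genotype 0.66 (5') and 0.11 (3'). All these set-adjusted values rest on the replicate gaps in Dnmt2+/+ ND and Dnmt2-/- HFD, the groups that span 2 sets. Exact matches gave -0.15 for 5' diet. TMM factors gave -0.44 and -0.051 for 5' and 3' diet and 0.22 for 5' genotype, and DESeq2 -0.41, -0.019 and 0.23. Over all sequences, the 2057 called for diet by edgeR became 0 with TMM factors, the replicate block or the sequencing set (12083, 9740 and 2816 at an unadjusted p under 0.05), and 3983 with DESeq2. Requiring 10 reads gave 3 called sequences for diet.

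Leaving out single libraries gave ranges of -0.0093 to 4.52 points for the loop-start share by diet and -2.08 to 0.333 for the CCA share by genotype. The log2 ranges for diet were -0.38 to 0.58 (5'), -0.34 to 1.26 (internal) and 0.015 to 1.42 (3', the last without Dnmt2+/+ ND replicate 2). For genotype they were -0.56 to 0.39 (5') and -0.78 to 0.83 (internal), and for the interaction -0.61 to 1.94 (internal) and -2.33 to 0.48 (3'). The 3' genotype value was -1.485 without Dnmt2+/+ ND replicate 1 and -0.081 without Dnmt2+/+ ND replicate 2. Sequences called for diet numbered 0 to 76. These fits leave a group with 1 library, taken to vary like the other groups.

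Replicate numbers did not pair the samples: deviations of same-numbered libraries correlated at -0.315 to 0.336 over the pairs of groups. The replicate block turned the internal genotype value to -0.028, which still did not pass, and changed no call among the tRNA-Asp-GTC classes, sequences and shares. Depth limited the test of single sequences: 231 of 3830 had the counts to enter it.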
